A study of Mus musculus with 44 samples.

Results

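The 10 genes described here encode enzymes that remove reactive oxygen species: the glutathione peroxidases Gpx1, Gpx3 and Gpx4, the peroxiredoxins Prdx1, Prdx2, Prdx5 and Prdx6, the superoxide dismutases Sod1 and Sod3, and the catalase Cat. They were chosen by name with earlier results of these data known, and Gpx3 because its level was already known to be among the highest in these cells. All 10 were present among the 12712 gene symbols of the deposited table. Their levels are therefore given as a description. The data cover 44 labelled (Tomato+) cells, each sequenced singly, out of the hindlimb muscles of C57BL/6 mice. The mice were adults of the genotype Prrx1-CreERT;Tomato, and there is 1 group without a control. All mice had received 2 mg tamoxifen by injection on each of 3 days, which lets a Cre recombinase driven by Prrx1, a gene of limb mesenchyme, switch on the red reporter. Muscle had been digested with collagenase and dispase, and labelled cells were sorted and then picked by hand. No animal is named in the labels, so all 44 form 1 sample, no test between conditions exists and no p-value is given. Shares of cells are given with exact Clopper-Pearson 95% intervals, which cover counting error only.

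Superoxide dismutases turn superoxide into hydrogen peroxide. Glutathione peroxidases, peroxiredoxins and catalase then reduce hydrogen peroxide or lipid peroxides, glutathione peroxidases with electrons from glutathione and most peroxiredoxins with electrons from thioredoxin. Gpx3 and Sod3 are secreted: Gpx3 is the glutathione peroxidase of plasma and extracellular fluid, and Sod3 is a copper and zinc dismutase that binds the extracellular matrix. The other members act inside the cell, Gpx1 and Sod1 mainly in the cytosol, Gpx4 on lipid peroxides in membranes, Cat in peroxisomes and Prdx5 in mitochondria, peroxisomes and cytosol.

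Gpx1, Gpx3 and Gpx4 are selenoproteins, in which a TGA codon is read as selenocysteine at the active site instead of as a stop. The codon is shown because the extracellular Gpx3 and the intracellular Gpx1 and Gpx4 share it, and it makes all 3 dependent on the selenoprotein synthesis genes described further on. The stretches below are 30 bases from the GENCODE transcripts of the GRCm38 mouse genome, 5′ to 3′, with the selenocysteine TGA in capitals.
Gpx3: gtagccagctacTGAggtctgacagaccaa
Gpx1: gtcgcgtctctcTGAggcaccacgatccgg
Gpx4: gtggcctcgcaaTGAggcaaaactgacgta
The codon lies in exon 2 of transcript Gpx3-201 (chromosome 11, 54907256 to 54907258, plus strand). In Gpx1-201 it lies in exon 1 (chromosome 9, 108339451 to 108339453, plus strand), and in Gpx4-201 in exon 3 (chromosome 10, 80054737 to 80054739, plus strand). Over the 30 bases, Gpx1 and Gpx3 share 14 identical positions, and Gpx4 shares 17 with each of them.

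Values are log2(FPKM + 1), where FPKM counts fragments per kilobase of transcript scaled to the library's size, so levels of different genes can be compared per length. The cells had been brought to a shared distribution before deposit: the highest log2 value was 14.95 in all 44 cells, and FPKM summed to between 579623 and 579912 per cell. A level is thus close to a rank within its cell, and sequencing depth is unknown. A log2 value of 1 or more was the lower threshold and of 5 or more (FPKM 31) the higher one. The higher threshold matters because low values were shared between certain libraries. Libraries were called linked where the rank correlation of 2 cells over every other row reached 0.541, and 42 cells fell into 6 blocks of 7 mutually linked libraries, while cells 30 and 44 were in no block. Each of the 42 also had 2 or 3 linked cells outside its block, so deviations from block medians, or leaving out a block, do not remove all links. Over 377 genes strong in 1 cell and taken from the rows not used for the links, linked cells showed a median of 0.278% of the strong value, and unlinked cells of the same set showed 0%. A value over 5 times the signal that this rate predicts from the linked cells is called over the linked signal below. The cells held fibroblast genes: all 9 measured genes of the fibroblast or fibro-adipogenic progenitor list had a median of 5 or more. The same held for 7 of 9 Dpp4-type and 8 of 10 Apod and Cxcl14-type fibroblast genes, 8 of 10 dissociation response genes, 1 of 8 tenocyte genes and none of 8 pericyte or smooth muscle and 7 myofibre genes. These medians do not describe every cell. At 5 or more, cell 36 held all 8 pericyte or smooth muscle genes and 4 of the 9 fibroblast genes, and cell 30 held 7 of those 8. Cell 31 held all 7 myofibre genes, and cells 8, 17 and 40 held 6, 7 and 6 of the 8 tenocyte genes. None of the 5 measured endothelial genes and 1 of the 6 measured leukocyte genes reached 5 in any cell, and erythroid genes are not analysed here.

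Gpx3 was by far the most abundant of the 10 transcripts, and the other secreted enzyme, Sod3, stood in the middle of the intracellular members. At a value of 1 or more, all 10 members were present in at least 22 cells, against 25.4% of all symbols. At 5 or more this held for 8 members, against 5.25% of all symbols. The median over cells was also 5 or more for these 8, against 5.1% of all symbols, and Prdx5 and Cat were the exceptions. Without the last block of linked libraries the median of Prdx2 was 4.41, so its place among the 8 depends on that block. The median of the members' medians was 7.28, against 0.15 over all symbols. Since the members were chosen with earlier results of these data known, these comparisons are descriptions and not a test.

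**Figure D1:**
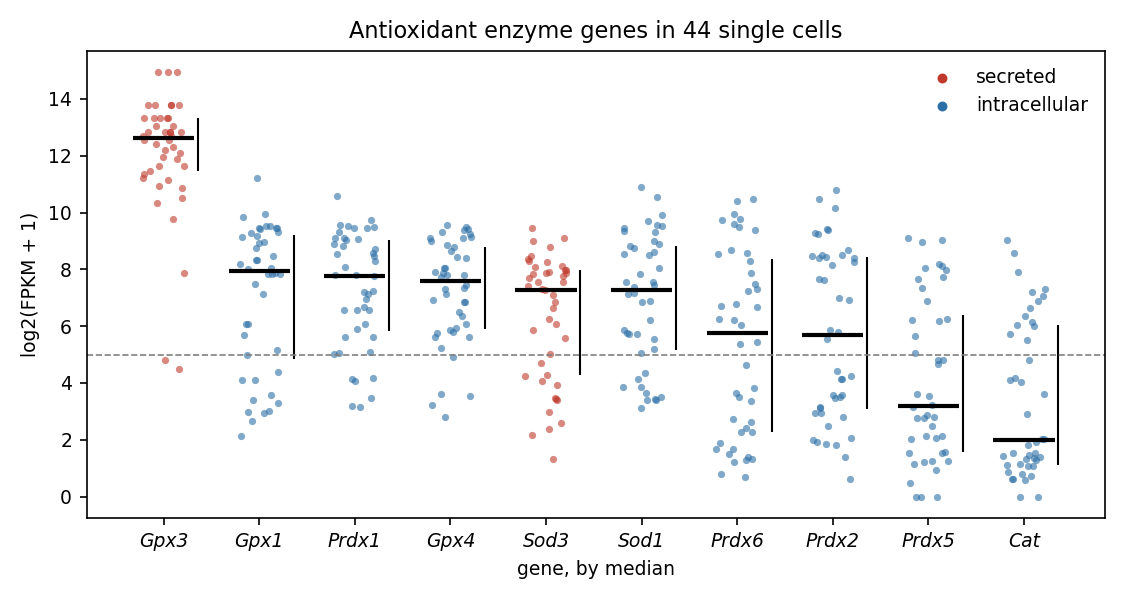
Log2(FPKM + 1) of the 10 genes, ordered by median, with 1 point per cell (44 cells), the median as a thick bar and the quartiles as a thin line, secreted enzymes in red and intracellular ones in blue, and a dashed line at 5. Gpx3 has a median of 12.63 and lies above the other 9 genes, whose medians run from 7.95 for Gpx1 to 1.98 for Cat.

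Gpx3 (ENSMUSG00000018339, chromosome 11, 54902453 to 54910377, plus strand) ranged from 4.50 in cell 13 to 14.95 in cells 7, 11 and 40, with a median of 12.63 and quartiles of 11.45 and 13.32. Its median FPKM was 6319, and only 1 of the 12712 symbols had a higher median log2 value. Within a cell Gpx3 was the most abundant gene in 3 cells, among the 5 most abundant in 21, among the 10 most abundant in 27 and among the 100 most abundant in 40. It made up a median of 1.09% of a cell's FPKM summed over the 12712 symbols instead of over all rows, with a range of 0.00374% to 5.49%. Under the shared distribution such a share follows mainly from rank. Its upper end belongs to cells where Gpx3 had the highest value, which is the same in all cells. The 8 intracellular members together made up a median of 0.326%, with a range of 0.0523% to 0.707%.

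High Gpx3 was common to nearly every cell. It reached 5 in 42 of 44 cells (95.5%, interval 84.5 to 99.4), and in those 42 it was also 7 or more. The signal predicted from linked cells was itself over 5 in every cell, from 5.45 in cell 30 to 8.11 in cell 33. It was over 7 in most cells. For Gpx3 these thresholds thus do not separate a cell's own transcript from carried signal. Gpx3 was over the linked signal in 40 cells. The 4 others were cells 13, 9, 27 and 8, with log2 values of 4.50, 4.82, 7.87 and 9.76. In cells 9 and 13 the FPKM of 27.3 and 21.7 lay below the 247 and 187 predicted from linked cells, a ratio of 0.110 and 0.116, so the predicted signal was too high for them and no Gpx3 of their own can be told apart from carried signal. Cell 27 had 1.68 times the predicted signal and cell 8 had 3.63 times.

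**Figure D2:**
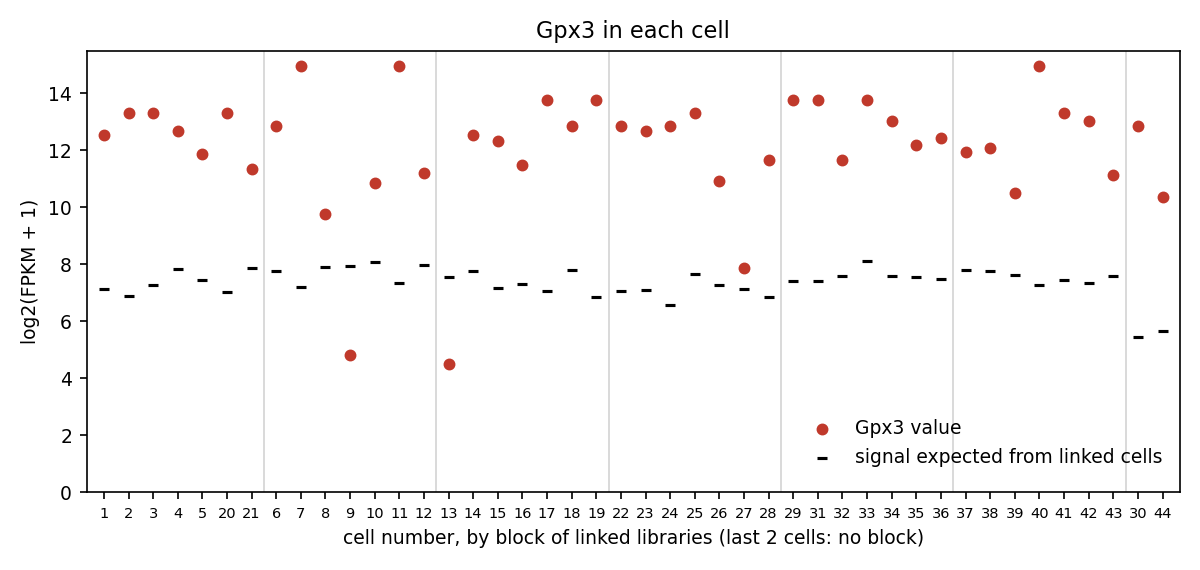
Gpx3 as log2(FPKM + 1) in each of the 44 cells (red points), grouped by block of linked libraries, with the signal predicted from linked cells as black dashes. Cells 9 and 13 lie below their dashes, cell 27 lies at 7.87 with its dash at 7.13, and the 40 cells called over the linked signal lie at 10.35 or more.

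Among intracellular glutathione peroxidases, Gpx1 (ENSMUSG00000063856, chromosome 9, 108338903 to 108340343, plus strand) ranged from 2.12 to 11.23 with a median of 7.95. It reached 5 in 32 cells (72.7%, interval 57.2 to 85.0) and 7 in 28, with 4 cells between 5 and 7. Cells were thus mostly either high or low in Gpx1, and cell 13, lowest in Gpx3, was its highest cell. Gpx4 (ENSMUSG00000075706, chromosome 10, 80047166 to 80056439, plus strand) was present more evenly, from 2.81 to 9.56 with a median of 7.59. It reached 5 in 39 cells (88.6%, interval 75.4 to 96.2), more than any other member except Gpx3. Gpx1 was higher than Gpx4 in 22 cells and lower in 22, and 1 cell held neither at 5 or more. The median difference, Gpx1 minus Gpx4, was -0.09 with quartiles of -2.22 and 2.41.

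The peroxiredoxins differed among themselves. Prdx1 (ENSMUSG00000028691, chromosome 4, 116685544 to 116700822, plus strand), a cytosolic thioredoxin-dependent enzyme, ranged from 3.14 to 10.59 with a median of 7.78 and reached 5 in 38 cells (86.4%, interval 72.6 to 94.8). Prdx6 (ENSMUSG00000026701, chromosome 1, 161240112 to 161251219, minus strand), which also acts on phospholipids, ranged from 0.68 to 10.48 with a median of 5.75 and reached 5 in 24 cells. Prdx2 (ENSMUSG00000005161, chromosome 8, 84969587 to 84974834, plus strand), the second cytosolic thioredoxin-dependent enzyme, ranged from 0.62 to 10.81 with a median of 5.67 and reached 5 in 23 cells. Prdx6 and Prdx2 were split, with 20 and 21 cells under 5 and 16 and 18 cells at 7 or more. Prdx5 (ENSMUSG00000024953, chromosome 19, 6906697 to 6910106, minus strand) ranged from 0 to 9.11 with a median of 3.18, was under 5 in 28 cells and reached 7 in 10. At 5 or more, 4 cells held all 4 of these peroxiredoxins and 1 cell held none of them. Prdx4 and Prdx3, which are not among the 10 members, had medians of 3.48 and 0.78. They reached 5 in 18 and 6 cells.

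Some counts could include reads of other genes. Exons of Prdx2 overlap those of Junb and Rnaseh2a on the opposite strand, and exons of Prdx5 overlap those of Trmt112 on the opposite strand. The sources used here do not give whether counting used the strand, so reads in the overlaps cannot be told apart. Prdx2 and Junb, an immediate early transcription factor gene, had a Spearman correlation of -0.30 over 44 cells, and 15 cells held Prdx2 at 5 or more without Junb. Prdx5 and Trmt112 had a correlation of 0.39, and 9 of the 16 cells with Prdx5 at 5 or more also held Trmt112. Among all 44 cells, 24 held Junb and 15 held Trmt112 at 5 or more. The annotation also holds a named pseudogene or related sequence for each of Gpx4, Prdx2 and Prdx6 (Gpx4-ps2, Prdx2-rs3 and Prdx6-ps2), so reads could be split between them and the gene.

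Of the superoxide dismutases, Sod1 (ENSMUSG00000022982, chromosome 16, 90220754 to 90226329, plus strand) ranged from 3.10 to 10.90 with a median of 7.28 and reached 5 in 34 cells (77.3%, interval 62.2 to 88.5). The secreted Sod3 (ENSMUSG00000072941, chromosome 5, 52363791 to 52371418, plus strand) ranged from 1.32 in cell 8 to 9.44 in cell 35, also with a median of 7.28. It reached 5 in 31 cells (70.5%, interval 54.8 to 83.2). Both were held at 5 or more by 23 cells, Sod1 alone by 11, Sod3 alone by 8 and neither by 2. Cat (ENSMUSG00000027187, chromosome 2, 103453849 to 103485160, minus strand) was the lowest member, from 0 in 2 cells to 9.04 in cell 7, with a median of 1.98. It reached 5 in 14 cells (31.8%, interval 18.6 to 47.6) and was over the linked signal in 20.

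In the order of medians, Gpx3, Gpx1, Prdx1, Gpx4, Sod3, Sod1, Prdx6, Prdx2, Prdx5 and Cat, only the step from Gpx3 to Gpx1 lay beyond the spread between cells. There the difference within a cell had a median of 4.78 with quartiles of 3.19 and 7.73, and Gpx3 was higher in 41 cells. For each of the 8 later steps the quartiles of the difference included 0. These 8 neighbours thus did not differ beyond their spread.

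Levels also differed between the 6 blocks of linked libraries. The median of a block ran from 11.20 to 13.05 for Gpx3, from 6.06 to 7.89 for Sod3 and from 6.66 to 9.04 for Prdx1, the 3 members with the narrowest ranges. It ran from 5.63 to 9.01 for Gpx4, 5.70 to 9.30 for Gpx1 and 2.47 to 6.24 for Prdx5. The ranges were widest for Cat (1.07 to 6.90), Prdx6 (1.88 to 7.29), Prdx2 (3.16 to 8.40) and Sod1 (3.66 to 8.55). Each block holds 7 cells, and what the blocks stand for is not given in the labels. The part of the blocks in these levels was not tested.

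A cell held a median of 5 of the 8 intracellular members at 5 or more, with a range of 2 to 8. All 8 were held by 2 cells, 7 by 3, 6 by 12, 5 by 11, 4 by 10, 3 by 4 and 2 by 2. Over the linked signal the median and the range were the same. The highest intracellular member was Gpx1 in 11 cells, Prdx1 in 8, Prdx6 and Sod1 in 7 each, Gpx4 and Prdx2 in 5 each and Cat in 1. No intracellular enzyme thus led in most cells, whereas Gpx3 was the highest of all 10 members in 41.

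The secreted enzymes did not stand together against the intracellular ones. Gpx3 exceeded the highest intracellular member of its cell by a median of 3.05 (quartiles 2.00 and 4.03), with a range of -6.72 to 6.66. The 3 cells where it did not were cells 9, 13 and 27, in which Prdx6, Gpx1 and Prdx2 were the highest members. The difference of Sod3 minus the highest intracellular member had a median of -2.80, and Sod3 was the higher in 3 cells. Sod3 was higher than Sod1 in 19 cells and lower in 25, with a median difference, Sod3 minus Sod1, of -0.88 and quartiles of -2.68 and 1.22. This difference moved to -0.29 without the first, the third or the last block of linked libraries, so it was not stable in size. Gpx3 made up a median of 75.5% of the summed FPKM of the 10 members (quartiles 59.0% and 86.6%), and 0.599% in cell 13.

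**Figure D3:**
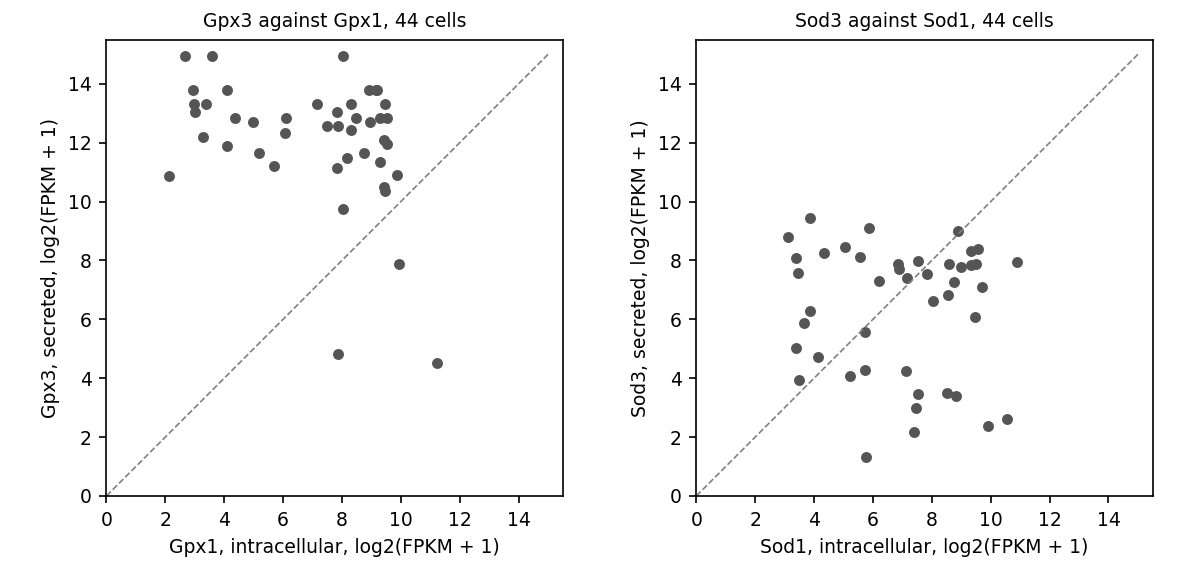
Secreted against intracellular enzyme in each of the 44 cells, as log2(FPKM + 1), with Gpx3 over Gpx1 on the left and Sod3 over Sod1 on the right, and a dashed line of equal level. Gpx3 lies above the line in 41 cells and Sod3 in 19.

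Co-expression over cells was weak. All correlations here are Spearman values over the 44 cells, which share libraries in blocks and a forced common distribution, and they describe these cells only. Over the 28 pairs of intracellular members the median was 0.03, with a range of -0.24 for Prdx1 and Prdx5 to 0.21 for Prdx2 and Prdx6. Over all 209628 pairs of the 648 genes with a median of 5 or more it was 0.01. The 16 pairs of a secreted with an intracellular member had a median of -0.04 and a range of -0.33 to 0.14. Gpx3 and Sod3 had a correlation of 0.17, which was -0.050 without the second block of linked libraries (cells 6 to 12) and between 0.12 and 0.26 without any other block.

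None of the 45 member pairs reached 0.3, against 3.98% of all pairs. At -0.3 or less there was 1, against 2.75% of all pairs. For 45 pairs such shares correspond to very few pairs, so both counts are near this background, which includes ribosomal protein genes. The 1 pair at -0.3 or less was Gpx3 and Gpx1, the secreted and the cytosolic glutathione peroxidase, at -0.33. Its value was -0.31 as deviations from block medians (42 cells) and -0.26 without the 4 cells in which Gpx3 was not over the linked signal. Gpx3 and Prdx1 followed at -0.26, and this value was -0.42 as deviations from block medians and -0.19 without those 4 cells. Gpx3 and Gpx4 were at 0.01, and Gpx1 and Gpx4, both intracellular, were at 0.09.

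**Figure D4:**
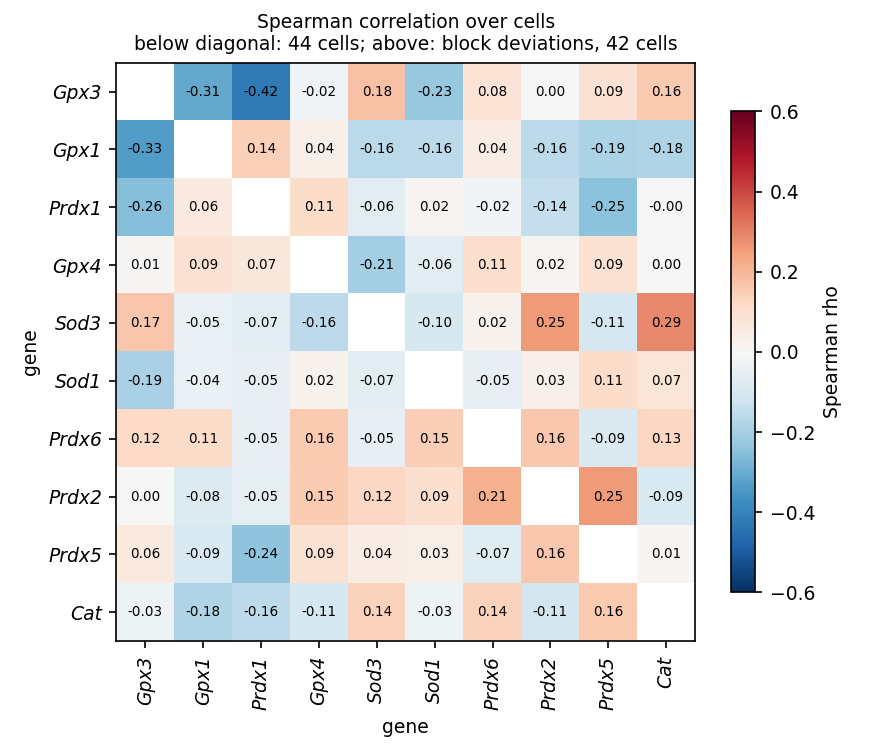
Spearman correlation of each pair of the 10 genes over cells, coloured from blue (negative) to red (positive), below the diagonal over 44 cells and above it after subtracting the median of each cell's block (42 cells). Most values lie near 0, and the lowest are Gpx3 with Gpx1 (-0.33 and -0.31) and Gpx3 with Prdx1 (-0.26 and -0.42).

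Among 566 genes with a median of 5 or more outside ribosomal protein genes, those most like Gpx3 were Slc29a1, a nucleoside transporter, at 0.42, Aamp at 0.41, the lysosomal membrane gene Laptm4a at 0.39, the matrix proteoglycan gene Podn at 0.37, the selenoprotein gene Selenok at 0.37 and the interferon-inducible Ifi27l2a at 0.35. The genes least like it were Calu, which encodes a calcium-binding protein of the secretory pathway, at -0.45, the collagen receptor gene Ddr2 at -0.41, Lgals1 (galectin-1) at -0.40 and Arpc1b, a subunit of an actin-nucleating complex, at -0.40. Of the 647 other genes with a median of 5 or more, 2.63% had a correlation with Gpx3 of 0.3 or more and 4.17% of -0.3 or less. Over all pairs of genes with such a median the shares were 3.98% and 2.75%. Positive correlates of Gpx3 were thus below that share and negative ones above it. Over the 10 members, positive correlates numbered from 13 for Prdx6 to 28 for Gpx1 and Prdx1, and Gpx3 with 17 lay within this range. Negative ones numbered from 4 for Sod3 to 27 for Gpx3. Whether Gpx3 differs from the other members in this was not tested. The 10 genes named for Gpx3 moved with the method: 3 were named again with Pearson correlation and 1 with block deviations. In the order given, their block deviation values were 0.35, 0.32, 0.37, 0.29, 0.32 and 0.32 for the 6 most like Gpx3. For the 4 least like it they were -0.32, -0.40, -0.33 and -0.36. Without the 4 cells in which Gpx3 was not over the linked signal, the first 6 were 0.36, 0.47, 0.30, 0.24, 0.25 and 0.18. The last 4 were then -0.31, -0.32, -0.43 and -0.39. All 10 were picked as extremes over these same cells, so these values do not check the choice. Those most like Sod3 were Arf4, a small GTPase of vesicle traffic, at 0.53, Ifi27l2a at 0.44, the translation elongation factor gene Eef2 at 0.44 and the matrix protein gene Dpt (dermatopontin) at 0.40. As block deviations these 4 values were 0.55, 0.42, 0.47 and 0.37.

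The members were also set against the mean level of 9 lists of cell type or state genes. Of the 90 correlations 6 (6.67%) reached 0.3 in either direction, against 11% of all gene and list pairs, so the count says nothing particular of the members and the values below are descriptions. Gpx3 was at 0.34 with the dissociation response list (Fos, Zfp36, Egr1 and others, which respond to tissue digestion) and at 0.31 with the myofibre list. Gpx1 was at 0.35 with the Dpp4-type fibroblast list. Cat was at -0.35 both with the pericyte or smooth muscle list and with the myofibre list. Sod3 was at -0.37 with the endothelial list, none of whose genes reached 5 in any cell. As block deviations 4 of these 6 values were under 0.3 in size: Cat with the myofibre list at -0.11, Gpx3 with the dissociation response list at 0.27, Sod3 with the endothelial list at -0.29 and Gpx1 with the Dpp4-type list at 0.297. Gpx3 with the myofibre list was at 0.35 and Cat with the pericyte or smooth muscle list at -0.42. Cells held a median of 1 of the 7 myofibre genes at 5 or more, so that list rests largely on low values. With values under 5 set to 5, Gpx3 and Cat with the myofibre list were at 0.29 and -0.28, and Prdx6 and Sod1 at -0.42 and -0.39. Gpx3 with the dissociation response list, Gpx1 with the Dpp4-type list and Cat with the pericyte or smooth muscle list were then at 0.32, 0.35 and -0.34.

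The 3 cells lowest in Gpx3 held most of the Dpp4-type fibroblast genes, an observation made after their values were seen. Of 9 such genes, cells 13, 9 and 27 held 9, 8 and 9 at 5 or more, against a median of 5 over all cells. The same 3 cells held 1, 3 and 5 of the 10 Apod and Cxcl14-type genes, against a median of 7, and 0, 3 and 6 of the 10 dissociation response genes, against a median of 6. Cell 8, next in order, held 2 Dpp4-type genes and 6 of the 8 tenocyte genes. Cells 44, 39, 10 and 26 followed, with 9, 6, 2 and 6 Dpp4-type genes. In all, 10 cells held 8 or 9 Dpp4-type genes, and Gpx3 in them ranged from 4.50 to 13.32 with a median of 11.77. In the other 34 cells it ranged from 9.76 to 14.95 with a median of 12.77. The cut at 8 matches the counts of cells 13, 9 and 27, which are among the 10 cells. The medians are therefore a description and not a check of the observation. The ranges overlapped, so a cell with many Dpp4-type genes could be high or low in Gpx3. The correlation of Gpx3 with the Dpp4-type list was -0.18, and -0.08 without the 4 cells in which Gpx3 was not over the linked signal. With the Apod and Cxcl14-type list it was 0.25, and 0.06 without those 4 cells. The part of the cell types in these Gpx3 levels was not tested.

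Of 83 measured other redox genes in 7 lists, 14 (16.9%) had a median of 5 or more, against 5.1% of all symbols. The lists too were chosen with earlier results of these data known, so this share is a description. For a list of 7 to 18 genes the share over all symbols corresponds to less than 1 gene, so a count of 0 or 1 in a list is near that background. Among 13 glutathione S-transferases, which conjugate glutathione to reactive compounds, 5 had a median of 5 or more (38.5%), and 5 had a median of 0. Gstm1 had a median of 10.94 and reached 5 in all 44 cells, Gstp1 had a median of 8.83 and Mgst1 of 7.19, while Mgst3 had a median of 0 and reached 5 in 4 cells. Gstp1 and Gstp2 are near-identical copies, so reads could be split between them.

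Of 18 selenoproteins and selenoprotein synthesis genes, 5 (27.8%) had a median of 5 or more, and all 5 encode selenoproteins: Selenop, the secreted selenium carrier, at 8.75, Selenow at 8.40, Selenom at 8.22, Selenok at 7.65 and Selenof at 7.01. None of the 6 listed genes that make or insert selenocysteine had a median of 5 or more, but 3 of them lay above the median of 0.15 over all symbols. Pstk, the kinase that acts on the selenocysteine transfer RNA, had a median of 1.60, Eefsec, the selenocysteine elongation factor, of 1.30, and Secisbp2, which binds the insertion signal in the messenger RNA, of 0.41. Sepsecs, Sephs1 and Sephs2 reached 1 in 7, 3 and 2 cells. Scly, which recycles selenium, had a median of 0 and reached 5 in 2 cells.

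Of 13 genes of the thioredoxin and peroxiredoxin cycle, 2 (15.4%) had a median of 5 or more. The thioredoxin inhibitor Txnip had a median of 8.09 and thioredoxin Txn1 of 6.56, Txndc17 followed at 4.01, and Sesn2 reached 1 in 0 cells (0 of 44; counting a 0 as at most 3 cells, which is not the exact interval used elsewhere, allows a share at this threshold of up to 6.82%, and depth being unknown this says nothing of cells that express it). The cytosolic thioredoxin reductase Txnrd1 had a median of 0. None of 15 genes of glutathione synthesis and recycling had a median of 5 or more, which is near the background. Their highest medians were 2.37 for Idh1, 1.98 for Pgd and 1.88 for Ggt5, and Chac1 reached 1 in no cell. Gsr, which regenerates glutathione, and Gclc, which starts its synthesis, both had a median of 0.

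Of 7 measured further glutathione peroxidases and dismutase partners none had a median of 5 or more, also near the background. The copper chaperone Atox1 had a median of 4.66, the endoplasmic reticulum peroxidase Gpx8 of 4.18, Gpx7 of 1.78 and the copper pump Atp7a, which loads Sod3 with copper, of 0.19. The mitochondrial dismutase Sod2 had a median of 1.14. Among 10 Nrf2 regulators and targets 1 had a median of 5 or more, near the background: Sqstm1, an autophagy adaptor, at 8.06. Nfe2l2, which encodes Nrf2 itself, the transcription factor of the antioxidant response, had a median of 3.34. Blvrb, a biliverdin reductase, had a median of 2.82, and Nqo1 had a median of 0 and reached 5 in 1 cell. Of 7 measured oxidant sources, 1 had a median of 5 or more, near the background: Xdh (xanthine dehydrogenase) had a median of 5.50 and Nox4 one of 2.70, and Cybb reached 1 in 0 cells.

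**Figure D5:**
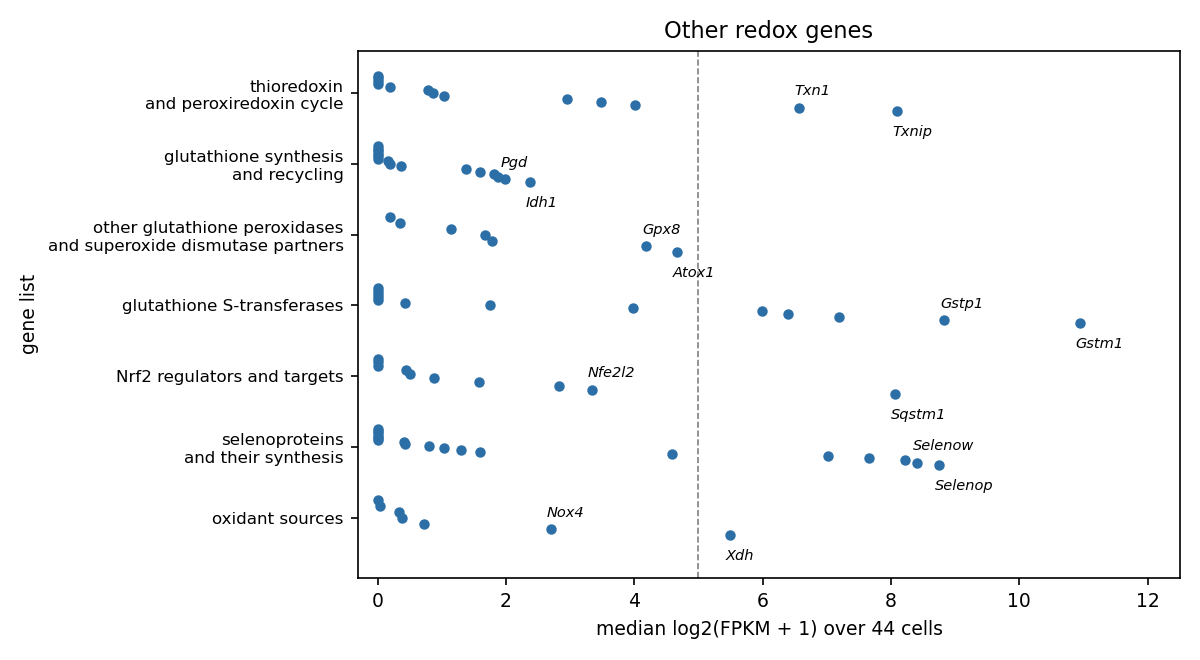
Median log2(FPKM + 1) over the 44 cells of each measured gene in 7 lists of other redox genes, with 1 point per gene, the 2 highest of each list named and a dashed line at 5. Of 83 genes 14 lie at or above the line, 5 of them glutathione S-transferases and 5 selenoproteins.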

How the data were processed

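The table that the authors deposited holds log2 values in 12745 rows, with a column for each of the 44 cells, and is labelled FPKM. GRCm38, TopHat2 and Cufflinks are named in the submitters' processing notes, with no versions. The log base, the added 1 and the shared distribution were inferred from the values, since the sources used here do not give them. Gene IDs matched reference names in 12711 rows, and of rows with the same symbol the highest by mean was used. Coordinates and transcripts come from GENCODE M21 on GRCm38, which matches the stated build.

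From these values, medians, exact binomial intervals, within-cell differences and Spearman correlations were computed in Python 3.11.15 with scipy 1.17.1 and pandas 2.3.3. The steps for correlations and links were tested on simulated data. The simulated links lay only within blocks, so links between blocks, as found in these data, were not tested. Linked libraries came from Otsu's threshold on rank correlations between cells, and blocks from groups of at least 5 mutually linked cells. Alternatives were other thresholds, a pseudocount of 0.1, Pearson correlation, values under 5 set to 5, block deviations and leaving out blocks.

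The members and lists were chosen with earlier results of these data known. The text names all members, of each redox list the 3 highest and the lowest by median, and the 6 highest and 4 lowest correlates of Gpx3 and the 4 highest of Sod3. Genes with overlapping exons, Prdx3, Prdx4, Txnrd1, Gsr, Gclc, Sod2, Pstk, Eefsec, Secisbp2, Sepsecs, Sephs1, Sephs2 and Selenof were named after their values were seen. Selenok was named by its correlation. The rule also covers single genes of the marker lists, which are given by counts and correlations only. A gene of the oxidant source list that the rule covers is not reported here.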

Additional observations from a re-analysis of the deposited data

How the results depend on the processing

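No paired analysis was possible because all cells belong to 1 group. Depth is unknown, and the forced distribution leaves only ranks within a cell to be compared. At a threshold of 7 or more, 6 of the 10 members were present in at least 22 cells, against 10 at a threshold of 1, which follows from the stricter threshold. The correlation of Gpx3 and Sod3 was -0.050 without the second block. Of the 10 genes named as most or least like Gpx3, 3 were named again with Pearson correlation, 1 with block deviations, 3 among genes with a median of 3 or more, and 3 without the 4 cells in which Gpx3 was not over the linked signal. The last alternative was chosen after seeing the data. The cause of these changes was not tested. The median of Gpx3 lay between 12.55 and 12.77 under the alternatives run, its mean over cells was 12.09, and its difference from the highest intracellular member between 2.88 and 3.29. Of all 231 alternative values, 186 stayed within the spread or ratio used, 45 moved and 0 reversed a called value. The moved ones were mostly counts of cells at other thresholds.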
